A study of Homo sapiens with 9 samples.

Results

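The CEACAM genes encode carcinoembryonic antigen-related cell adhesion molecules, glycoproteins of the immunoglobulin superfamily that sit on the surface of epithelial cells and granulocytes. The 9 genes described are CEACAM1, CEACAM3, CEACAM4, CEACAM5, CEACAM6, CEACAM7, CEACAM8, CEACAM19 and CEACAM21, listed by name. All 9 were among the 23931 genes measured, each with 1 probe set. The family was chosen by the log2 fold changes of its genes against control cells, above all that of CEACAM5. Levels and fold changes against control are therefore given as a description without a test.

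The cells were H2009, a line of human lung adenocarcinoma, and every group carried CRISPRa, in which a dead Cas9 (dCas9) that cannot cut DNA carries VPR, a tandem of the transcription activators VP64, p65 and Rta. All were grown in DMEM with serum and blasticidin as the selecting antibiotic. The sgRNA-A group held a guide RNA that directs this activator to raise the microRNAs of 14q32, and the sgRNA-B group held a different guide for the same purpose. Control cells carried the guide vector with no guide in it. Each group had 3 arrays, called biological replicates of 1 cell clone in the series' design text, so an effect of a guide and a property of its clone cannot be told apart. The comparisons ask which transcripts differ in cells made to raise 14q32 microRNAs and whether the guides differ from each other. The submitters report that rise from RT-qPCR, and no value used here measures it.

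CEACAM proteins bind one another, and some bind bacteria, through an N-terminal immunoglobulin variable-like domain. CEACAM5, CEACAM6, CEACAM7 and CEACAM8 are held in the membrane by a glycosylphosphatidylinositol (GPI) lipid anchor and lack a cytoplasmic tail. CEACAM1, CEACAM3, CEACAM4, CEACAM19 and CEACAM21 cross the membrane. CEACAM5 is the carcinoembryonic antigen itself, a serum marker of colorectal and lung adenocarcinoma, and CEACAM5 and CEACAM6 are made by many carcinomas of the lung.

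The family's promoters are shown first because CEACAM5 and CEACAM6 were lower with both guides and CEACAM1 with 1 of them, while CEACAM7, the neighbour of CEACAM5, lay at background. RefSeq's table for GRCh38.p14 held 300-base windows, from 250 bases before to 50 after the start, for 8 of the 9 genes, with 2 starts for CEACAM21. The windows below read 5′ to 3′ on the gene's strand, in lower case. Capitals mark CACGTG, an E-box sequence that the transcription factor USF is known to bind in the CEACAM5 promoter.
CEACAM5 (chr19:41708376-41708675, plus strand): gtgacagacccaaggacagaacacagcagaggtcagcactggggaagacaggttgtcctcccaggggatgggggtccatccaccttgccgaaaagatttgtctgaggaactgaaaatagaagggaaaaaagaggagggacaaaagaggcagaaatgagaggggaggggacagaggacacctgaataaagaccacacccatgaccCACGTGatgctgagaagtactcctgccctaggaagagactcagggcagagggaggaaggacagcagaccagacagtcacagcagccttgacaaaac
CEACAM6 (chr19:41755280-41755579, plus strand): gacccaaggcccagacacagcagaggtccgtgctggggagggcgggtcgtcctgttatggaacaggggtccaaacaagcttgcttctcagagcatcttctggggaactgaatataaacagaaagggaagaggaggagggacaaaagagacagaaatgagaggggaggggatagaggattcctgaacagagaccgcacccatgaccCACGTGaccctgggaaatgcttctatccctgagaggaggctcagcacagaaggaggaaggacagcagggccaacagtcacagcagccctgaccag
CEACAM7 (chr19:41688221-41688520, minus strand): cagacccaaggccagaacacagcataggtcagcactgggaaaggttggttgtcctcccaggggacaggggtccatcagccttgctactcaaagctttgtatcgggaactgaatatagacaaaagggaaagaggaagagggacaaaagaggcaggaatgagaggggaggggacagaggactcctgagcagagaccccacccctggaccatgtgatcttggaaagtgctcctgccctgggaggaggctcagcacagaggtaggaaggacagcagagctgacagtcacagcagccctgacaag
CEACAM1 (chr19:42528432-42528731, minus strand): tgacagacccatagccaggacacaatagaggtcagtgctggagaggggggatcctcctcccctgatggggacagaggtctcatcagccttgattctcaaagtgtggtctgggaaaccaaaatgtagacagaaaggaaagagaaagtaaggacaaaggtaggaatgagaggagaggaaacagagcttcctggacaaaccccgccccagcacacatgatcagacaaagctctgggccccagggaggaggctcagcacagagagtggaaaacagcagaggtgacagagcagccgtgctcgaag

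CACGTG, which reads the same on both strands, occurred in 2 of the 9 windows, those of CEACAM5 and CEACAM6. It began 46 bases before the start of CEACAM5 and 45 before that of CEACAM6, and 7.26% of all 35116 windows in the table held it. The GC box GGGCGG, which SP1 binds, was found on either strand in 5 windows, among them those of CEACAM6 and CEACAM1 but not of CEACAM5, against 45% of all windows. TATAAA was found only in that of CEACAM6 (11.5% of all windows). A pair of GAAA runs with 2 bases between them, the core of interferon response elements, was found only in that of CEACAM1 (3.57% of all windows). Both strands were searched for each. In a global alignment the window of CEACAM5 matched that of CEACAM7 at 84.7% of aligned bases, CEACAM6 at 78.8% and CEACAM1 at 72%. By the share of aligned bases, which leaves gaps out, CEACAM6's window was closest to that of CEACAM3 (82.4%, 229 of 278). By the number of identical bases it was closest to that of CEACAM7 (81.5%, 243 of 298). The genes with the closest windows, CEACAM7 and CEACAM3, lay at background in every array. As the windows of CEACAM5 and CEACAM6 are alike, their CACGTG sites are not independent of each other. A match of letters does not show that a factor was bound. Any link of these sequences to the fold changes was not tested.

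Values are log2 RMA intensities, in which a difference of 1 is a doubling. As a rough background, 95% of 355 olfactory receptor genes, taken as silent, lay below 4.442. CEACAM1, CEACAM5, CEACAM6 and CEACAM19 lay above it in all 9 arrays, and CEACAM3, CEACAM4, CEACAM7, CEACAM8 and CEACAM21 lay below it in all 9. Family members resemble one another in sequence, and cross-hybridisation between them was not tested. In control cells CEACAM7 and CEACAM3 averaged 3.76 and 3.63, and CEACAM5 and CEACAM6 averaged 11.05 and 11.79. Probe sequences were not available, and likeness of promoter windows does not measure likeness of the probed transcripts.

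**Figure D1:**
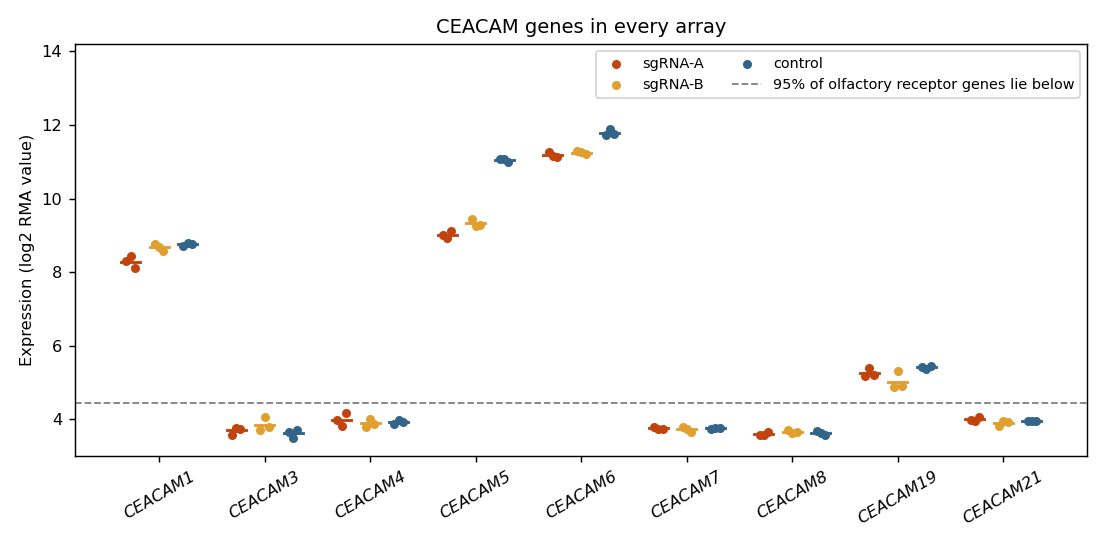
Expression of the 9 CEACAM genes in log2 RMA units, with a point for each array, a bar for each group mean of 3 arrays, and a dashed line at 4.442, below which 95% of olfactory receptor genes lay. CEACAM1, CEACAM5, CEACAM6 and CEACAM19 lie above the line in all 9 arrays and the other 5 genes below it; the gap between guides and control is widest for CEACAM5.

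CEACAM5 (gene number 1048, after which its probe set is named) was lower with both guides than in control cells. It read 9.02, 8.93 and 9.11 in sgRNA-A cells, 9.45, 9.25 and 9.28 in sgRNA-B cells, and 11.07, 11.06 and 11.01 in control cells. The 3 groups did not overlap: all sgRNA-A arrays lay below all sgRNA-B arrays, and both sets below all control arrays. The group means were 9.02 ± 0.09 in sgRNA-A cells, 9.32 ± 0.11 in sgRNA-B cells and 11.05 ± 0.04 in control cells (SD, n = 3 each). The log2 fold change was -2.03 (SE 0.06) in sgRNA-A cells, 4.08-fold lower, and -1.72 (SE 0.06) in sgRNA-B cells, 3.30-fold lower. By size this was the lowest fold change of 23931 genes in sgRNA-A cells and the second lowest in sgRNA-B cells. In cultures measured in bulk, fewer expressing cells and less RNA per cell cannot be told apart.

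CEACAM6 (gene number 4680), a GPI-anchored relative that carcinomas often express together with CEACAM5, was lower in both guide groups by a smaller amount. Its arrays read 11.26, 11.16 and 11.14 in sgRNA-A cells, 11.29, 11.26 and 11.20 in sgRNA-B cells, and 11.73, 11.88 and 11.75 in control cells. The guide groups overlapped each other and both lay below control, with gaps of 0.48 (sgRNA-A) and 0.45 (sgRNA-B) log2 units to the lowest control array. The log2 fold change was -0.61 (SE 0.05) in sgRNA-A cells and -0.54 (SE 0.05) in sgRNA-B cells, the 58th and 39th lowest of all genes.

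CEACAM7, the GPI-anchored member known from colon epithelium, stayed at background. Its values spanned 3.75 to 3.78 in sgRNA-A cells, 3.66 to 3.79 in sgRNA-B cells and 3.74 to 3.78 in control cells, so the groups overlapped throughout. It lies next to CEACAM5 on the chromosome.

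CEACAM1 (gene number 634), a transmembrane member whose long form carries inhibitory tyrosine motifs that recruit the phosphatases SHP1 and SHP2, was lower in sgRNA-A cells. It read 8.29, 8.44 and 8.13 in sgRNA-A cells, 8.77, 8.69 and 8.58 in sgRNA-B cells, and 8.71, 8.78 and 8.78 in control cells. All sgRNA-A arrays lay below all others, whereas the sgRNA-B arrays overlapped control. The log2 fold change was -0.47 (SE 0.08) in sgRNA-A cells and -0.08 (SE 0.08) in sgRNA-B cells. The array does not separate its splice forms here, as the table holds 1 value for the gene.

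CEACAM3, CEACAM4 and CEACAM8 are known from granulocytes, where CEACAM3 serves as a phagocytic receptor for bacteria and CEACAM8 is the CD66b antigen. All lay below the background level in every array. CEACAM3 read 3.59, 3.76 and 3.75 in sgRNA-A cells, 3.72, 4.06 and 3.80 in sgRNA-B cells, and 3.67, 3.50 and 3.72 in control cells. Its groups overlapped. The log2 fold change of 0.23 (SE 0.08) in sgRNA-B cells was the widest among the 5 background members, and there only the highest control array reached into the range of the guide. CEACAM4 spanned 3.83 to 4.18 in sgRNA-A cells, 3.79 to 4.01 in sgRNA-B cells and 3.87 to 3.99 in control cells, with overlap. CEACAM8 spanned 3.57 to 3.67 in sgRNA-A cells, 3.64 to 3.70 in sgRNA-B cells and 3.57 to 3.69 in control cells, again with overlap.

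CEACAM19 and CEACAM21 are less studied transmembrane members. CEACAM19 (gene number 56971) read 5.18, 5.40 and 5.21 in sgRNA-A cells, 4.87, 5.31 and 4.91 in sgRNA-B cells, and 5.44, 5.37 and 5.45 in control cells. The sgRNA-A arrays overlapped control, and the sgRNA-B arrays all lay below it, by 0.06 at the nearest. The SD was 0.24 in sgRNA-B cells, against 0.12 in sgRNA-A cells and 0.05 in control cells, since array 2 of sgRNA-B stood above the other replicates. The log2 fold change was -0.15 (SE 0.13) in sgRNA-A cells and -0.39 (SE 0.13) in sgRNA-B cells. CEACAM21 lay at background, between 3.83 and 4.08 over all 9 arrays, with overlapping groups.

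**Figure D2:**
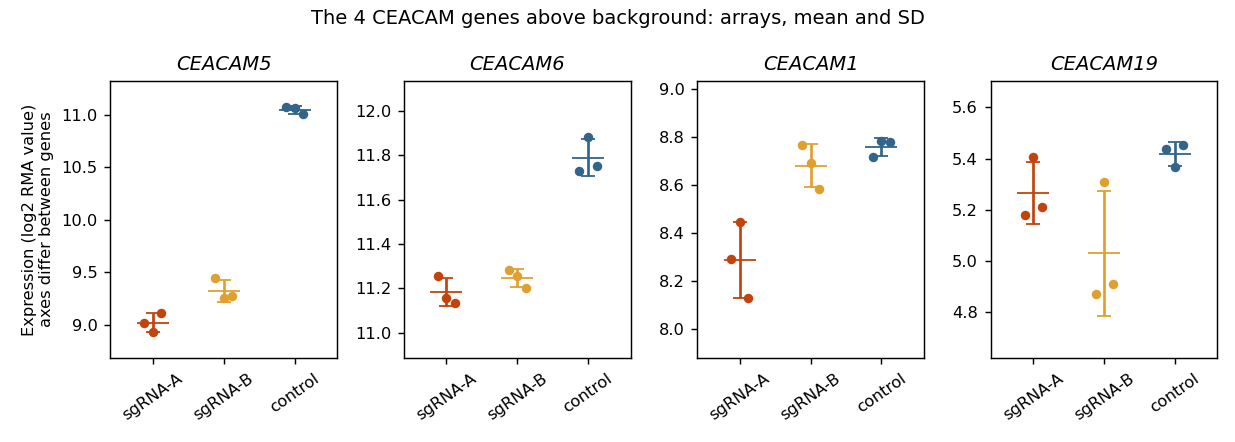
Log2 RMA values of CEACAM5, CEACAM6, CEACAM1 and CEACAM19 by group, each on its own vertical axis, with a point for each of 3 arrays, a bar for the mean and whiskers for 1 SD. CEACAM5 and CEACAM6 are lower in both guide groups than in control cells, CEACAM1 is lower in sgRNA-A cells at 8.29 ± 0.16 against 8.76 ± 0.04 in control cells, and CEACAM19 in sgRNA-B cells is the most spread.

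Counted over the family, 3 of the 9 members (CEACAM1, CEACAM5 and CEACAM6) were called lower in sgRNA-A cells at an adjusted p below 0.05 in limma's fit over all genes, and 0 were called higher. Of all genes, 1.22% were called lower and 0.957% higher in that comparison, 2.18% in all. With sgRNA-B, 2 of 9 (CEACAM5 and CEACAM6) were called lower and 0 higher, where 1.51% and 1.56% of all genes were, 3.07% in all. These counts come from the comparisons that led to the family, so they are a description and no test of it. The arrays of 3 members lay wholly below control in sgRNA-A cells (8.78% of all genes did) and those of 3 in sgRNA-B cells (10.5% did), with CEACAM19 in place of CEACAM1. Arrays of 0 members lay wholly above control, as those of 8.98% of all genes did in sgRNA-A cells and of 9.67% in sgRNA-B cells. The median log2 fold change of the 9 was -0.02 in sgRNA-A cells and -0.04 in sgRNA-B cells, against 0.0036 and -0.0039 for all genes. Both comparisons use the same 3 control arrays.

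**Figure D3:**
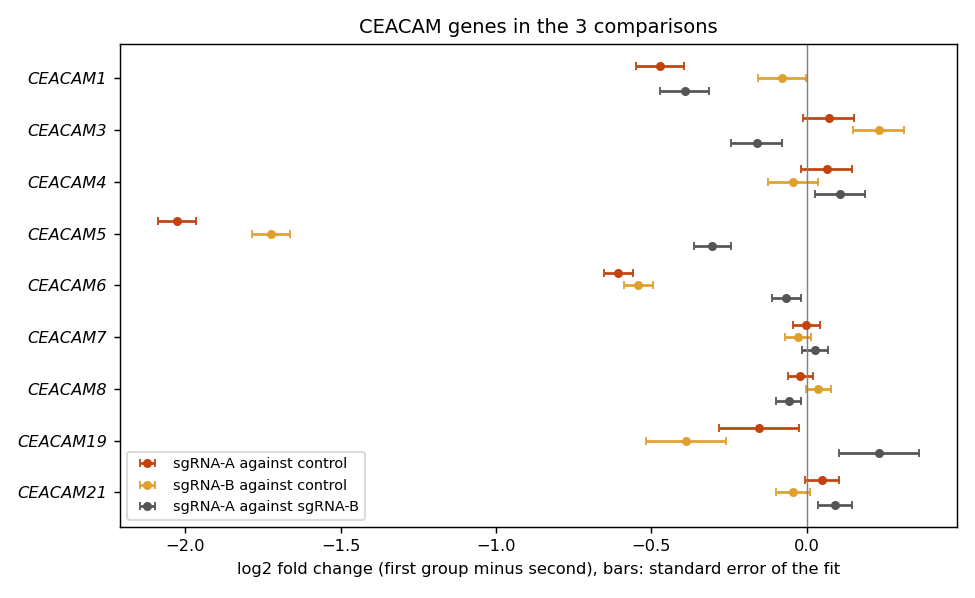
Log2 fold changes of the 9 CEACAM genes (first group minus second) for the guides against control and for sgRNA-A against sgRNA-B, with bars of 1 standard error of the fit. CEACAM5 lies at -2.03 and -1.72 against control, and the differences between the guides all lie between -0.39 and 0.23.

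The guides were compared with each other in the same fit, which tests whether the changes against control differ between them. In limma 0 of the 9 members were called after Benjamini-Hochberg adjustment over all genes. An unadjusted p below 0.05 was found for 2 of the 9 and for 2511 of all 23931 genes. Of all genes 0.0627% were called lower and 0.0418% higher, 0.104% in all. CEACAM5 was lower in sgRNA-A cells than in sgRNA-B cells by a log2 difference of -0.30 (SE 0.06, 95% interval -0.43 to -0.17), with limma's adjusted p = 0.0944. CEACAM1 differed by -0.39 (SE 0.08, 95% interval -0.56 to -0.23), with the same adjusted p = 0.0944 in limma. For each of them all 3 sgRNA-A arrays lay below all 3 sgRNA-B arrays, by 0.14 log2 units at the nearest. Of all genes 7.34% had sgRNA-A arrays wholly below those of sgRNA-B by any margin. 0 members had sgRNA-A arrays wholly above those of sgRNA-B, against 8.56% of all genes. So for CEACAM1 a call in sgRNA-A cells and none in sgRNA-B cells is not shown to be a difference between the guides. Over 17 alternative settings the adjusted p in limma ranged from 0.0517 to 0.359 for CEACAM5 and from 0.0532 to 0.372 for CEACAM1, so neither was called in any.

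The remaining members gave wider overlap between the guides. CEACAM6 differed by -0.06 (95% interval -0.17 to 0.04, limma's adjusted p = 0.659) and CEACAM19 by 0.23 (95% interval -0.04 to 0.51, adjusted p = 0.543). CEACAM3, CEACAM4, CEACAM7, CEACAM8 and CEACAM21 differed by -0.16 to 0.11, with 95% intervals reaching from -0.34 for CEACAM3 to 0.28 for CEACAM4 and limma's adjusted p between 0.515 and 0.852. A p that misses the threshold does not show equal levels.

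The rest of the carcinoembryonic antigen family on chromosome 19 was measured alongside. It holds CEACAM16, CEACAM18 and CEACAM20 and the pregnancy-specific glycoproteins (PSG genes), which the placenta secretes. Of 13 such genes listed, 10 were measured, and 2 of the 10 lay above background by their mean over the arrays. A gene at background leaves little room to show a fall. Limma called 0 of the 10 in any of the 3 comparisons. For guides A and B against control and for A against B, 0, 1 and 2 of the 10 had an unadjusted p below 0.05. Of all 23931 genes, 3210, 3527 and 2511 did. Their median was 0.02 in sgRNA-A cells and -0.0046 in sgRNA-B cells. The widest in the sgRNA-A comparison was PSG3 at -0.31 (SE 0.25), whose value was raised in single arrays of the other groups, at 4.82 in array 1 of sgRNA-B and at 5.11 in array 2 of control. PSG9 gave the widest fold change in sgRNA-B cells, 0.32 (SE 0.15), without a call.

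On the chromosome, CEACAM21, CEACAM4, CEACAM7, CEACAM5, CEACAM6 and CEACAM3 follow each other among the measured genes in RefSeq's order, and CEACAM1 and CEACAM8 lie further along 19q13. CEACAM5 and CEACAM6 are neighbours, and on both sides the next CEACAM genes were at background. Beyond CEACAM3 the next measured genes were LYPD4, at -0.01 in sgRNA-A cells and -0.07 in sgRNA-B cells, and DMRTC2, at -0.07 and 0.06. From CEACAM21 to CEACAM8, 23 other genes were measured, and this stretch was chosen after the data were seen. With sgRNA-A 1 of the 23 rose and 0 fell (median 0.04), and in sgRNA-B cells 2 rose and 0 fell (median 0.02). Of all genes 0.957% rose and 1.22% fell in sgRNA-A cells, and 1.56% rose and 1.51% fell in sgRNA-B cells. CD79A, a B-cell receptor component, rose by 0.71 (SE 0.11, adjusted p = 0.00471, limma) in sgRNA-A cells and by 0.93 (SE 0.11, adjusted p = 0.000664, limma) in sgRNA-B cells. PAFAH1B3, a subunit of an acetylhydrolase, rose in sgRNA-B cells by 0.22. Left out singly, some arrays ended a call here and in the lists that follow, as did some settings of the fit. PAFAH1B3 lost its call without arrays 1, 2 or 3 of sgRNA-A, arrays 1 or 2 of sgRNA-B, or arrays 1, 2 or 3 of control (limma's adjusted p 0.0557 to 0.195).

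**Figure D4:**
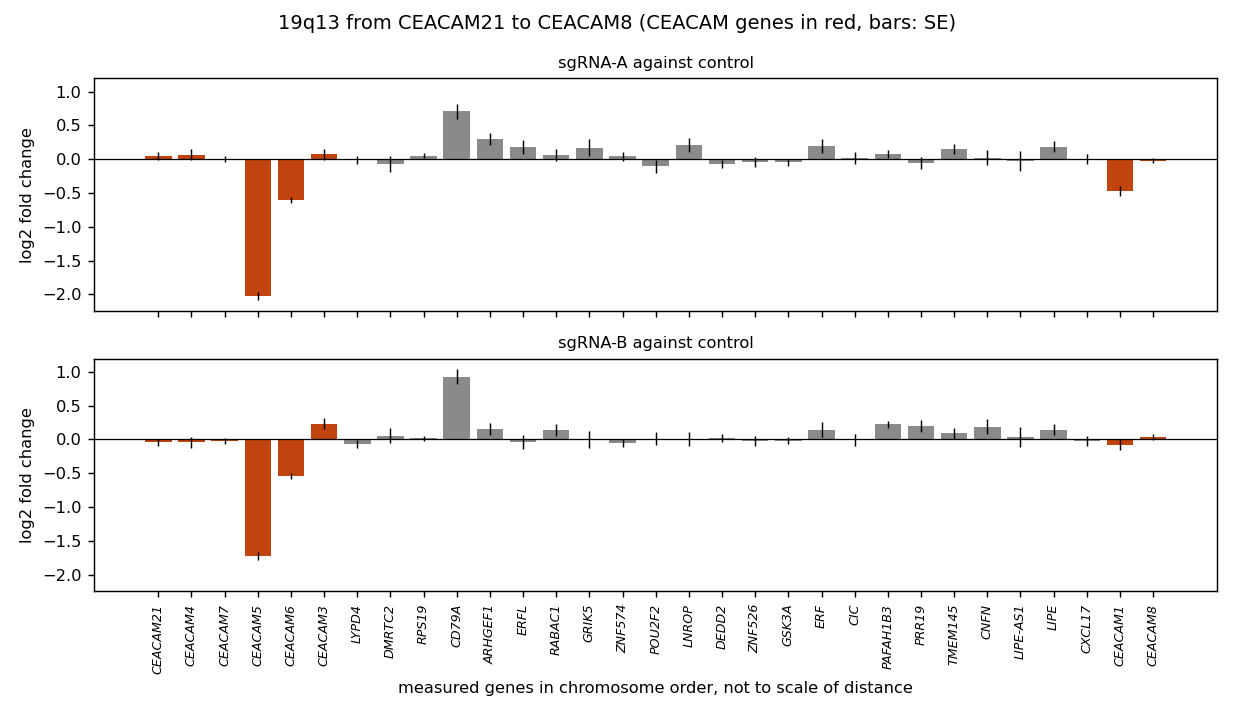
Log2 fold changes against control for the measured genes of 19q13 from CEACAM21 to CEACAM8, in chromosome order and not to scale of distance, for sgRNA-A above and sgRNA-B below, with a bar for each gene (CEACAM genes in red) and whiskers of 1 standard error of the fit. CEACAM5 and CEACAM6 stand below 0 in both panels and CEACAM1 in the upper one, while CD79A is the tallest bar above 0.

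The likeness of other genes to CEACAM5 was measured as Pearson's r over the 9 arrays, a description that reflects the gap between guide and control arrays shared by all of them. The highest values belonged to CTSV, a lysosomal cysteine protease (r = 0.990), the proline dehydrogenase PRODH (0.984), the helicase subunit MCM6 (0.983), the lysosomal fucosidase FUCA1 (0.983), the ceramide synthase CERS6 (0.982) and CEACAM6 (0.980). CTSV read 9.34, 9.46 and 9.36 in sgRNA-A cells, 9.59, 9.48 and 9.59 in sgRNA-B cells, and 10.38, 10.30 and 10.36 in control cells. As for CEACAM5, control arrays were highest and the guide groups did not overlap, sgRNA-A being lowest. FUCA1 had the same order, averaging 8.28 ± 0.04 in sgRNA-A cells, 8.47 ± 0.05 in sgRNA-B cells and 8.89 ± 0.01 in control cells (SD, n = 3 each). The opposite pattern was strongest for CD68, a lysosomal membrane glycoprotein of macrophages and other cells (r = -0.992), TNFAIP2, a gene induced by tumour necrosis factor (-0.986), and EPG5, an autophagy factor (-0.971). MCM6 differed much less in size than CEACAM5, by -0.22 in sgRNA-A cells and -0.16 in sgRNA-B cells. The calls of 3 of these genes were lost when single arrays were left out: MCM6 in sgRNA-B cells for any array but arrays 2 and 3 of sgRNA-A (limma's adjusted p 0.0502 to 0.121), CD68 in sgRNA-B cells for any sgRNA-B or control array (0.061 to 0.098), and EPG5 in sgRNA-A cells for any of the 9 (0.0718 to 0.16).

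**Figure D5:**
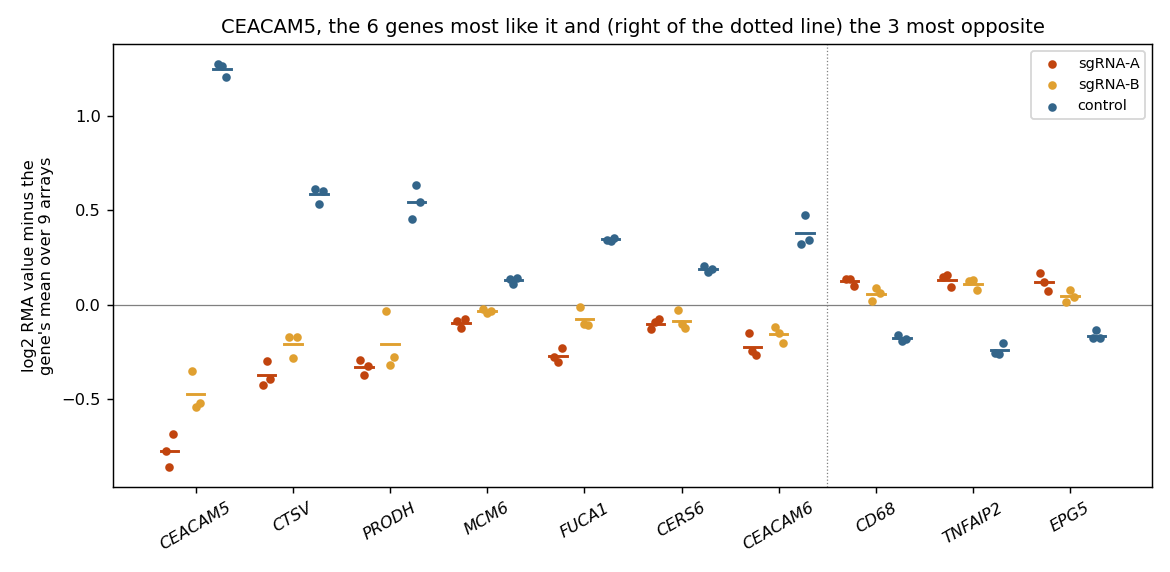
Log2 RMA values minus each gene's mean over the 9 arrays for CEACAM5, the 6 genes with the highest correlation to it (CTSV first, r = 0.990) and, right of the dotted line, the 3 with the lowest (CD68 first, r = -0.992), with a point for each array and a bar for each group mean. In the 7 genes on the left the control arrays lie above all guide arrays, and in the 3 on the right below them.

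Genes that act with CEACAM proteins were counted from lists made with earlier results known. For this list and those below, the shares of all genes were 1.22% fallen and 0.957% risen in sgRNA-A cells. In sgRNA-B cells they were 1.51% and 1.56%. An unadjusted p below 0.05 was found for 3210 (sgRNA-A) and 3527 (sgRNA-B) of all 23931 genes. A call with a single guide does not show a difference between the guides. Of 17 measured binding partners and signalling proteins, 0 changed in sgRNA-A cells in limma (0 at an unadjusted p below 0.05). In sgRNA-B cells 6 of the 17 had an unadjusted p below 0.05 in limma. After adjustment 2 fell and 0 rose there. These were the epidermal growth factor receptor EGFR (-0.35, SE 0.05, limma's adjusted p = 0.00202) and the transforming growth factor receptor TGFBR1 (-0.25, SE 0.05, adjusted p = 0.0183). TGFBR1 was not called in that comparison without arrays 1, 2 or 3 of sgRNA-B or arrays 1 or 2 of control (limma's adjusted p 0.0518 to 0.0701). The list's median was -0.0077 in sgRNA-A cells and -0.02 in sgRNA-B cells, near that of all genes. The transcription factors known to act on CEACAM promoters held 18 measured genes, among them USF1, USF2, SP1 and SP3. Limma called 0 of them in sgRNA-A cells (3 at an unadjusted p below 0.05). In sgRNA-B cells 4 had an unadjusted p below 0.05 and 1 rose, SOX9 (0.29, SE 0.05, limma's adjusted p = 0.00778). Their median was 0.02 in sgRNA-A cells and -0.01 in sgRNA-B cells.

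CEACAM5 and CEACAM6 need a GPI anchor to reach the membrane. Of 28 measured genes of GPI synthesis and transfer, 1 rose and 1 fell in sgRNA-A cells in limma (7 at an unadjusted p below 0.05). In sgRNA-B cells 0 of the 28 changed (4 at an unadjusted p below 0.05, limma). Their median was 0.0072 in sgRNA-A cells and 0.05 in sgRNA-B cells. PGAP1, which remodels the anchor, rose by 0.35 (SE 0.07) in sgRNA-A cells, against 0.25 without a call in sgRNA-B cells. PIGS, a subunit of the transamidase that attaches the anchor, was at -0.23 (SE 0.05) in sgRNA-A cells. It was at -0.13 without a call in sgRNA-B cells, and limma called 0 of the 28 between the guides. Both calls were lost without arrays 1 or 2 of sgRNA-A or array 1 of control, and that of PGAP1 also without array 2 of control (limma's adjusted p 0.0519 to 0.0755 for PGAP1 and 0.0771 to 0.111 for PIGS). Of 32 other GPI-anchored surface proteins, 6 fell and 1 rose in sgRNA-A cells (median -0.02), and 2 fell and 1 rose in sgRNA-B cells (median -0.05). In limma 14 of the 32 had an unadjusted p below 0.05 in sgRNA-A cells and 9 in sgRNA-B cells. Among all genes 1.22% fell and 0.957% rose with sgRNA-A, and 1.51% fell and 1.56% rose with sgRNA-B. CD55, which restrains complement, was lower with both guides, at -0.20 (SE 0.04) in sgRNA-A cells and -0.25 (SE 0.04) in sgRNA-B cells. The glypican GPC3 (-0.42), the ephrin EFNA1 (-0.59) and the nucleotidase NT5E (0.16) changed in sgRNA-A cells. All sgRNA-A arrays of GPC3 lay below the background level. In sgRNA-B cells GPC3, EFNA1 and NT5E were at -0.32, -0.25 and 0.0098, without a call. The antiviral tether BST2 rose (0.36) and CD109 was lower (-0.16) in sgRNA-B cells. In sgRNA-A cells BST2 and CD109 were at 0.23 and -0.14, without a call. Limma called 0 of the 32 between the guides. With sgRNA-A, CD55 lost its call without arrays 2 or 3 of sgRNA-A or array 1 of control (limma's adjusted p 0.0714 to 0.0945), and GPC3 without arrays 2 or 3 of sgRNA-A or arrays 2 or 3 of control (0.0574 to 0.0754). EFNA1 lost it without those 4 arrays or array 1 of control (0.0524 to 0.109), NT5E without any sgRNA-A or control array (0.0545 to 0.096), and CD109 without any sgRNA-B or control array (0.0664 to 0.126).

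Relatives of CEACAM5 by structure and by clinical use were counted in the same way. Of 26 measured adhesion molecules of the immunoglobulin superfamily, 1 fell in sgRNA-A cells, the laminin receptor BCAM (-0.51, SE 0.08, limma's adjusted p = 0.00395). It was at -0.26 in sgRNA-B cells (limma's adjusted p = 0.0858, or 0.0495 with the dimmest 50% of genes left out). With sgRNA-B 1 rose, the leukocyte ligand ICAM1 (0.52, SE 0.10, limma's adjusted p = 0.0141), which was at 0.13 in sgRNA-A cells without a call. Limma called 0 of the 26 between the guides. An unadjusted p below 0.05 in limma was found for 5 of the 26 in sgRNA-A cells and 8 in sgRNA-B cells. The median of the 26 was -0.01 in sgRNA-A cells and -0.03 in sgRNA-B cells. ICAM1 was not called without arrays 2 or 3 of sgRNA-B or array 1 of control (limma's adjusted p 0.0582 to 0.0712). Of 14 measured serum markers of carcinoma other than CEACAM5, 2 fell in sgRNA-A cells (median -0.04), and 2 fell and 1 rose in sgRNA-B cells (median -0.02). In limma 6 of the 14 had an unadjusted p below 0.05 in sgRNA-A cells and 4 in sgRNA-B cells. The shares of all genes were 1.22% fallen with sgRNA-A, and 1.51% fallen and 1.56% risen with sgRNA-B. The mucin MUC16, which carries the CA125 antigen, averaged 8.25 ± 0.09 in sgRNA-A cells, 8.08 ± 0.055 in sgRNA-B cells and 8.67 ± 0.08 in control cells (SD, n = 3 each). It was called in both guide groups, with limma's adjusted p = 0.00692 for sgRNA-A and 0.000613 for sgRNA-B. WFDC2, the HE4 antigen, was lower in sgRNA-A cells (-0.26), a call lost without arrays 1 or 2 of sgRNA-A or any control array (limma's adjusted p 0.0511 to 0.11). With sgRNA-B the protease inhibitor SLPI was lower (-0.38), with all sgRNA-B arrays below the background level. That call was lost without any sgRNA-B array or array 1 of control (limma's adjusted p 0.056 to 0.101). In sgRNA-A cells SLPI was at -0.28, without a call. The mucin MUC1 rose in sgRNA-B cells (0.42, SE 0.06).

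The arrays were alike, with correlations of 0.997 to 0.9982 within groups and 0.9958 to 0.998 between them. The mean distance of an array to the others of its group was 0.148 to 0.185 log2 units (root mean square over genes), highest for array 3 of sgRNA-A. Leaving that array out, or any other, left the same number of members called in each comparison. For the comparisons with control this is no support, as the members were chosen by those values on these arrays. Of 6 measured host or flanking genes of the targeted 14q32 locus, 1 (MEG9) lay above background by its mean over the arrays, and DLK1, MEG3, RTL1, MEG8 and DIO3 lay below it. Limma called 0 of the 6 in either guide group, and 0 had an unadjusted p below 0.05. Marker lists were judged by each gene's mean over the arrays. The epithelial markers EPCAM, CDH1, KRT7, KRT8, KRT18 and KRT19 and the lung factor NKX2-1 lay above background. NAPSA and SFTPB, markers of differentiated lung adenocarcinoma, lay below background in control cells. Of these 9 markers 1 fell in sgRNA-A cells, KRT7 (-0.18), and 3 had an unadjusted p below 0.05 in limma. The KRT7 call was lost without array 1 of sgRNA-A or arrays 1 or 2 of control (limma's adjusted p 0.0512 to 0.0769). In sgRNA-B cells 0 of the 9 changed (3 at an unadjusted p below 0.05, limma), with KRT7 at -0.11. Of 10 granulocyte markers 3 lay above background (ELANE, S100A9 and, with its lowest array at 4.412, AZU1) and MPO and FCGR3B below it. Limma called 0 of them in each comparison, and 0 had an unadjusted p below 0.05. Of 11 other blood and stromal markers, COL1A1 alone lay above background, and limma called 0, with 1 at an unadjusted p below 0.05 in sgRNA-A cells and 0 in sgRNA-B cells.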

How the data were processed

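Groups and replicate numbers came from the sample titles. The deposited table holds log2 values made by the authors with RMA, per the submitters' processing notes; no version or array model is named in the labels. As RMA equalises the arrays' distributions, any shift of a whole array is removed, and no detection or saturation flags come with it. Each array had a median of 4.913, and values spanned 3.38 to 13.82. Of 24733 probe sets, 23934 had 1 gene symbol, and the other 799, with none or several, were left out. For 3 symbols with several probe sets the brightest was kept, giving 23931 genes, with no filter on dim genes. A single linear model held all 9 arrays and the 3 group means (lmFit and eBayes with trend, limma 3.58.1, R 4.3.3). P-values were adjusted by Benjamini and Hochberg over all genes. "Called", "rose" and "fell" mean an adjusted p below 0.05, and SE is that of the fit. The steps were tested on simulated data. The spread behind each p-value is that among 3 arrays of 1 clone, and the number of arrays limits precision. Members and lists were chosen with earlier results of these data known. The rule for names took all members, up to 4 called genes per list and comparison, and the 3 measured genes on each side of CEACAM5 and CEACAM6. It also took the 6 genes with the highest and the 3 with the lowest (most negative) correlation with CEACAM5. Promoter sequences are RefSeq's (GRCh38.p14); no build is named for the array.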

Additional observations from a re-analysis of the deposited data

Results flagged for a closer look

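The guides differed from each other at 2 of the genes named above, neither of them a CEACAM gene. MUC1, a membrane mucin, averaged 9.15 ± 0.08 in sgRNA-A cells and 9.60 ± 0.09 in sgRNA-B cells (SD, n = 3 each), a difference of -0.45 (SE 0.06, adjusted p = 0.00963, limma), lower in 3 of 3 sgRNA-A arrays; control cells averaged 9.18 ± 0.02. TGFBR1 averaged 9.02 ± 0.06 in sgRNA-A cells and 8.69 ± 0.02 in sgRNA-B cells, a difference of 0.33 (SE 0.05, adjusted p = 0.0313, limma), higher in 3 of 3 sgRNA-A arrays; control cells averaged 8.94 ± 0.03. The TGFBR1 call was lost without any 1 of the 6 guide arrays or array 1 of control (adjusted p 0.0522 to 0.164) and with only the compared groups fitted (0.0556). The MUC1 call was lost without arrays 1 or 2 of sgRNA-A or arrays 1 or 2 of sgRNA-B (0.0522 to 0.0766).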

How the results depend on the processing

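Over the 444 values recomputed for the 9 members, 3 were called in sgRNA-A cells, 2 in sgRNA-B cells and 0 between the guides each time. The family was chosen by its values against control on these arrays, so those counts are no support for them. CEACAM5 ranged from -2.07 to -1.98 in sgRNA-A cells and from -1.78 to -1.69 in sgRNA-B cells. The count over all genes moved more. Against 522 genes called in sgRNA-A cells in the reported fit, 788 were called with the dimmest 50% of genes left out, where fewer genes are tested, and 321 with only the compared groups fitted. Between the guides 39 were called without the dimmest genes, against 25. Leaving out 1 array gave 223 to 435 genes in sgRNA-A cells, 353 to 735 in sgRNA-B cells and 6 to 30 between the guides. The count moved by over 1.5 times without any sgRNA-A array or control array 1 for sgRNA-A, and without any sgRNA-B array or control arrays 1 or 3 for sgRNA-B, and without any of the 6 guide arrays between the guides. With the replicate block the counts were 465, 684 and 34. Same-numbered arrays deviated together (correlation over 0.1) in 1 of 9 pairs, so the numbers were not treated as pairing. Of 1521 values of other named genes, 115 lost a call, 6 gained one and 0 reversed. Besides single arrays, calls were lost without the variance trend in sgRNA-A cells for CD55 (limma's adjusted p 0.116), PIGS (0.0708), NT5E (0.103), WFDC2 (0.103) and KRT7 (0.0873), and in sgRNA-B cells for CD109 (0.0942), PAFAH1B3 (0.0981) and MCM6 (0.075). With only the compared groups fitted they were lost for PGAP1 and PIGS (both 0.0566), NT5E (0.0642), EFNA1 (0.0598) and EPG5 (0.117) in sgRNA-A cells, and for CD109 (0.0592), PAFAH1B3 (0.0736) and MCM6 (0.0589) in sgRNA-B cells. With the replicate block CD109 (0.0524), PAFAH1B3 (0.0591) and MCM6 (0.0527) lost theirs in sgRNA-B cells and EPG5 (0.0798) in sgRNA-A cells. EPG5 also lost it with a robust prior (0.0578) and with arrays centred on their medians (0.0507). The 5 members at background are not tested when the dimmest 50% are left out. The table has no detection flags, so background could be set only from the olfactory receptor genes.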

Other observations

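3 further probe sets of the family stand outside the lists. The pseudogene CEACAM22P had log2 fold changes of 0.06 in sgRNA-A cells and 0.0075 in sgRNA-B cells, the pseudogene PSG10P -0.17 and -0.02, and the antisense RNA PSG8-AS1 -0.0054 and -0.009, and limma called none of them.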
